A study of Mus musculus with 22 samples.

Results

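Fmo1, Fmo2, Fmo5 and Inmt are 4 genes of enzymes that act on small molecules, and their transcripts were measured in mouse heart after titanium dioxide nanoparticles had been put into the airways. The 4 genes were chosen by name, through the RefSeq accession that the array design gives for each probe, and with their levels in these hearts already known. The array carried 6 probes for them, and all 4 genes were among the 15514 tested. Because those levels guided the choice, the levels of the 4 genes and their differences between the 4 groups are given below as a description, with intervals and without a test.

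Flavin-containing monooxygenases (FMOs) use NADPH and a bound flavin to add oxygen to nitrogen or sulfur atoms of drugs, dietary amines and thioethers. Fmo1 encodes a form that is abundant in the liver and kidney of mice, Fmo2 encodes the main lung form of many mammals, and Fmo5 encodes a form that oxidises ketones and few of the usual FMO substrates. Inmt encodes indolethylamine N-methyltransferase, which moves a methyl group from S-adenosylmethionine onto amines such as tryptamine and onto selenium and sulfur compounds, and which is abundant in lung.

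Gene expression was measured in heart RNA of 22 female C57BL/6 mice, 1 mouse on each array, which had been 5 to 7 weeks old when bought and were acclimatised for 1 to 3 weeks. Each mouse received 40 µl into the trachea once under anaesthesia, either of saline with cell-free lung lavage fluid of naive mice (control) or of the same fluid with 162 µg of nanosized titanium dioxide (nano-TiO2). Hearts were taken on day 1 from 5 control mice and 5 treated mice, and on day 28 from 6 of each, and the groups are named by treatment and day. Heart RNA carried the dye Cy5, and Universal Mouse Reference RNA, a pool from 11 cell lines, carried Cy3 throughout, without dye swaps, so that each level below is a log2 ratio of heart to that pool. A ratio of 0 means an equal signal in both, not the absence of the transcript, and levels are compared within a gene.

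The labels name heart as the tissue, while their extraction text speaks of the left lung. The heart muscle genes Myh6 and Tnnt2 were well above background on all 22 arrays and the lung surfactant gene Sftpc on 0 of 22. Transcripts of other tissues were present on some arrays. Scgb1a1 of airway club cells exceeded background on 6 arrays (4 were day 28 controls), the liver gene Alb on 15 and the fat cell gene Adipoq on 16. Of the 22 arrays, 3 were low in atrial transcripts, with the atrial gene Myl7 under 3 in log2. These were control day 1 replicate 2, nano-TiO2 day 1 replicate 1 and nano-TiO2 day 28 replicate 1. Myl7 was still well above background on all 22 arrays, with a lowest ratio of 1.9. High Scgb1a1 (over 2) or Alb (over 3) was found on 5 arrays (control day 28 replicates 1, 3, 4 and 5 and nano-TiO2 day 1 replicate 2). The cell type marker lists below were drawn up with earlier results of these arrays known. In whole hearts, fewer cells of a type and less RNA per cell cannot be told apart.

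RefSeq promoter windows of the build GRCm38.p6 were matched for 3 of the 4 genes, and they are shown because the 4 genes differed between the control groups in unequal measure. Each window runs from 250 bases before to 50 after a transcription start, 5′ to 3′ on the strand of the gene. Capitals mark matches, on either strand, to TATAAA (the TATA box), CCAAT (the CCAAT box), TGTTCT (bound by steroid receptors such as the glucocorticoid receptor as one arm of their site) or AGGTCA (one arm of the sites of many other nuclear receptors), with no overlap between matches. Fmo2 has 2 annotated starts, chr1:162898709-162899008 and chr1:162898444-162898743, both on the minus strand.
Fmo2, first window: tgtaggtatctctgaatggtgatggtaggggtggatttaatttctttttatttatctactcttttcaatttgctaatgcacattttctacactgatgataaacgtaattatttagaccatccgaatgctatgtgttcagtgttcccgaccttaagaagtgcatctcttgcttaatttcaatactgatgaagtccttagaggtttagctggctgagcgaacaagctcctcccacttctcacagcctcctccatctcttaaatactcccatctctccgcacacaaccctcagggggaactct
Fmo2, second window: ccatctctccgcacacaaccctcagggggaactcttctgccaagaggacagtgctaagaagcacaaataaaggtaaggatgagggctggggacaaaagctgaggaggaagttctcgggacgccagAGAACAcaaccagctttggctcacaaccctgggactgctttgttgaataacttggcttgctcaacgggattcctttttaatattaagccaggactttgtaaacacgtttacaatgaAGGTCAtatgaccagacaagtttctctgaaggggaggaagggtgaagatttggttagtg
Fmo5, chr3:97628769-97629068, plus strand: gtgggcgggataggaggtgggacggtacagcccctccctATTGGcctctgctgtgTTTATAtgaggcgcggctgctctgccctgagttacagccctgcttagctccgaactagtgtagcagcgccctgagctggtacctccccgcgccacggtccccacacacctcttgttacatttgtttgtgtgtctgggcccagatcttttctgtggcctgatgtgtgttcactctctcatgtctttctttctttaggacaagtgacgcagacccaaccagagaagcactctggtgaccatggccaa
Inmt, chr6:55174941-55175240, minus strand: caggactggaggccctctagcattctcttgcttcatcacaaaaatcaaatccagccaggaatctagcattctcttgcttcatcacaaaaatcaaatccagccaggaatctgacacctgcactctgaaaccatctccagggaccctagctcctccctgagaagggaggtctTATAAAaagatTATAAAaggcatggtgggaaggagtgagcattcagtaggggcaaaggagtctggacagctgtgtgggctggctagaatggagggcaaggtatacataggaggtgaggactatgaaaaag
The first Fmo2 window held 0 matches to the 4 motifs. The second held TGTTCT on the opposite strand at -125 bases from the start, and AGGTCA at -9. Anywhere in the window and on either strand, 19% of 32851 mouse promoter windows held TGTTCT and 16.3% held AGGTCA. The Fmo5 window held CCAAT at -211 and TATAAA at -195, both on the opposite strand, and the Inmt window held TATAAA at -80 and -69. Of all windows, 37.4% held CCAAT and 13.6% held TATAAA. A match describes the letters of the window and is no evidence of a bound factor.

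Fmo2 had group means 1.12 apart in log2, from control day 1 to control day 28. Its main probe lay at 1.51 ± 0.52 (SD, n = 22 arrays) in log2, at the 91st percentile of the mean ratios of all genes tested, and was well above background in Cy5 on 22 of 22 arrays. The control hearts of day 1 gave 0.91, 1.21, 1.26, 0.54 and 0.78. The nano-TiO2 hearts of day 1 gave 1.10, 1.90, 1.57, 2.04 and 1.56, so that 4 of 5 lay above every control. The control hearts of day 28 ran from 1.66 to 2.43 with a median of 2.09, and the nano-TiO2 hearts of day 28 from 0.83 to 1.66 with a median of 1.46. The highest treated and the lowest control heart of day 28 met at 1.663 to 3 decimals, and no treated heart lay above a control. In order of the group means, control day 1 (0.94 ± 0.30, SD) was followed by nano-TiO2 day 28 (1.32 ± 0.39), nano-TiO2 day 1 (1.64 ± 0.36) and control day 28 (2.06 ± 0.26). Each group overlapped its neighbour in this order. The 2 nano-TiO2 groups stood next to each other, with a difference between days of -0.31 (95% interval -0.70 to 0.07).

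Inmt lay close to the reference pool, at -0.11 ± 0.44 (SD, n = 22), and was well above background in both dyes on all 22 arrays. It is the only one of the 4 genes whose reference signal was measured on every array. The day 1 controls gave -0.54, -0.29, -0.73, -0.38 and -0.33, and the day 1 nano-TiO2 hearts -0.81, 0.11, -0.52, -0.28 and -0.04. These 2 groups overlapped, with 3 treated hearts above every control and 1 below. The day 28 controls ran from -0.01 to 0.70 with a median of 0.48, and the day 28 nano-TiO2 hearts from -0.53 to 0.22 with a median of -0.31. All 6 day 28 controls lay above all 5 day 1 controls, while 4 of the 6 treated hearts of day 28 lay below every day 28 control. The means of control day 1 (-0.45 ± 0.18, SD), nano-TiO2 day 1 (-0.31 ± 0.37) and nano-TiO2 day 28 (-0.22 ± 0.32) lay within their spread of each other, and control day 28 (0.43 ± 0.24) stood above them.

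Fmo1 lay at 1.19 ± 0.25 (SD, n = 22) above the reference pool in log2, the 88th percentile of all genes tested, and its groups overlapped throughout. The day 1 controls gave 1.27, 1.19, 1.34, 1.05 and 1.02. The day 1 nano-TiO2 hearts gave 1.14, 1.21, 1.33, 1.67 and 1.21, with replicate 4 alone above the controls. The day 28 controls ran from 0.88 to 1.58 with a median of 1.41, and the day 28 nano-TiO2 hearts from 0.63 to 1.19 with a median of 1.11. The low end of the treated hearts came from replicates 1 and 2, at 0.73 and 0.63, and the other 4 lay inside the range of the controls. The group means were 0.99 ± 0.25 (SD) in nano-TiO2 day 28, 1.18 ± 0.14 in control day 1, 1.31 ± 0.21 in nano-TiO2 day 1 and 1.32 ± 0.28 in control day 28, and no neighbours in this order differed beyond their spread.

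Fmo5 lay at 0.75 ± 0.30 (SD, n = 22), at percentile 81.2 of all genes tested, and its reference signal was well above background on 4 of 22 arrays. The day 1 controls gave 0.73, 0.61, 0.97, 0.25 and 0.54, and the day 1 nano-TiO2 hearts 0.75, 0.55, 0.75, 0.99 and 0.55. The day 28 controls ran from 0.49 to 1.47 with a median of 1.08, and the day 28 nano-TiO2 hearts from 0.23 to 0.96 with a median of 0.66. All of these groups overlapped, and 1 treated heart of day 28 (replicate 1) lay below every control of that day. The means were 0.62 ± 0.26 (SD) in control day 1, 0.64 ± 0.25 in nano-TiO2 day 28, 0.72 ± 0.18 in nano-TiO2 day 1 and 0.98 ± 0.36 in control day 28, each within the spread of its neighbour.

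**Figure D1:**
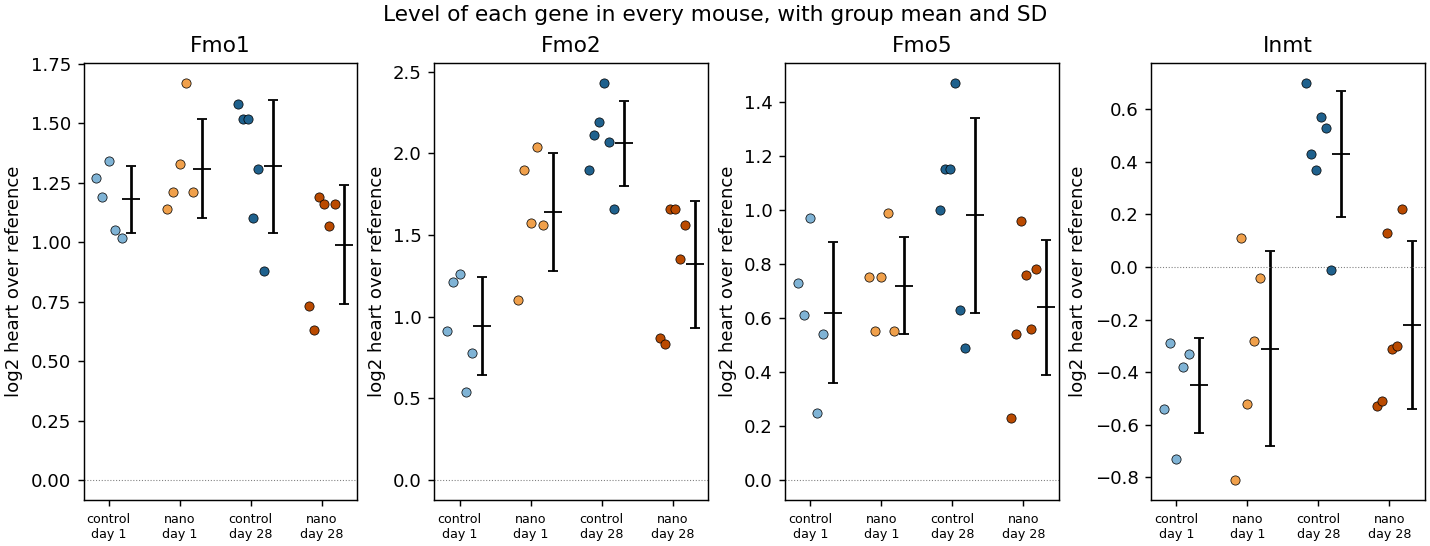
Log2 ratio of heart to reference RNA of Fmo1, Fmo2, Fmo5 and Inmt, 1 point per mouse, with the group mean and SD as bar and whiskers, in the 4 groups. Fmo2 and Inmt of the day 28 controls lie above all day 1 controls, with means of 2.06 against 0.94 and of 0.43 against -0.45.

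Fmo2 and Fmo5 each had a second probe. The second Fmo2 probe was well above background on 2 of 22 arrays, both day 28 controls, and its group means lay between 0.03 and 0.16, so it gives no measure of the gene in the other groups. The second Fmo5 probe was well above background on 19 of 22 arrays. Its means were 0.32 ± 0.14 (SD) in control day 1, 0.50 ± 0.10 in nano-TiO2 day 1, 0.64 ± 0.24 in control day 28 and 0.48 ± 0.17 in nano-TiO2 day 28, lower than those of the main probe and likewise highest in the day 28 controls. The reference signal of Fmo1 and Fmo2 was well above background on 14 and 10 of 22 arrays, so for the 3 FMO genes the size of the ratio rests partly on how a dim reference spot is handled. Taken from the scanner's own log ratios, the group means of Fmo2 were 3.79 to 4.81 in place of 0.94 to 2.06. The highest was then nano-TiO2 day 1 (4.81) and no longer control day 28 (4.48).

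The first comparison asked how the hearts differed from controls 1 day after nano-TiO2. Fmo2 was 0.70 ± 0.19 (SE, 5 against 5 mice) higher in log2 in the treated hearts, a ratio of 1.62-fold with a 95% interval of 0.29 to 1.10 in log2. The other genes differed less: Fmo1 by 0.14 ± 0.14 (interval -0.15 to 0.42), Inmt by 0.14 ± 0.17 (-0.21 to 0.49) and Fmo5 by 0.10 ± 0.16 (-0.24 to 0.44), each with an interval that holds 0. None of the 4 genes was among those that limma called after adjustment over all genes, and 0% of the 15514 genes were (0 called, 1337 with an unadjusted p under 0.05). Complete separation of the groups, which none of the 4 showed, was found upwards for 1.26% of genes and downwards for 0.425%.

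Slides were told apart by their barcodes, and 4 slides held both groups of day 1. Fmo2 was higher in the treated hearts within all 4, by 0.19, 0.68, 1.5 and 0.79, and within the 3 scan days by 0.31, 0.44 and 1.15. Fmo1 differed within slides by -0.13 to 0.62, Fmo5 by -0.06 to 0.74 and Inmt by -0.28 to 0.41, with both signs in each. The widest difference of Fmo1, Fmo2 and Fmo5 came from the same slide.

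Markers of several other cell types, though not of all, moved the same way as Fmo2 at day 1. All 9 adipocyte markers tested were higher in the treated hearts, with a mean over the list of 0.19 (range of arrays -1.92 to 1.92) against -1.72 (-2.04 to -0.83) in controls, and Adipoq was well above background on 4 of 5 treated and 1 of 5 control arrays. The mean of the smooth muscle markers was 0.15 against -0.98, of the mesothelial markers -0.02 against -0.73, of the macrophage markers 0.03 against -0.39 and of the atrial markers 0.04 against -1.19. Cardiomyocyte markers were lower in 7 of 9, with a mean of 0.11 against 0.17. Lung epithelium markers stood at -0.20 against -0.18 and liver markers at -0.12 against -0.19. With the adipocyte mean as a covariate the Fmo2 difference was 0.36 in place of 0.70. Without the 3 arrays low in atrial transcripts it was 0.90. Both settings were chosen after the data were seen. Whether the content of these cells sets the Fmo2 difference was not tested.

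At day 28 all 4 genes were lower in the nano-TiO2 hearts than in their controls. Fmo2 differed by -0.74 ± 0.18 (SE, 6 against 6 mice) in log2, 1.67-fold, with a 95% interval of -1.11 to -0.37. Inmt differed by -0.65 ± 0.15 (interval -0.97 to -0.33), 1.57-fold. Fmo5 differed by -0.34 ± 0.15 (-0.65 to -0.03) and Fmo1 by -0.33 ± 0.13 (-0.59 to -0.07), the smaller pair of the 4. No gene was called at day 28: limma gave 0 of 15514, 0%, while 1177 had an unadjusted p under 0.05 (871 lower in treated hearts). Complete separation was found upwards for 0.0451% of genes and downwards for 0.0773%, 12 in number. Fmo2 was 1 of these 12, although its groups met at 1.663.

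Each of 6 slides held 1 control and 1 treated heart of day 28. Fmo2 was lower in the treated heart on 6 of 6, by -1.03, -0.53, -0.72, -1.28, -0.77 and -0.10. Inmt was lower on 5 of 6, with -1.23, -0.24, -0.83, -0.94 and -0.88, and higher by 0.23 on the last slide. Fmo5 was likewise lower on 5 of 6 (-0.77 to -0.07) and 0.29 higher on that last slide, and Fmo1 was lower on 4 of 6 (-0.89 to -0.24), with 0.05 and 0.28 on the others. The slide on which 3 of the genes stood higher in the treated heart carried control replicate 6, the lowest of the day 28 controls in all 4 genes. That heart also had the lowest mean of adipocyte markers among the day 28 controls, -0.20 against 0.88 to 2.31. By scan day, the differences ran from -1.16 to -0.41 in Fmo2, -1.08 to -0.30 in Inmt, -0.69 to 0.11 in Fmo5 and -0.87 to 0.02 in Fmo1.

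**Figure D2:**
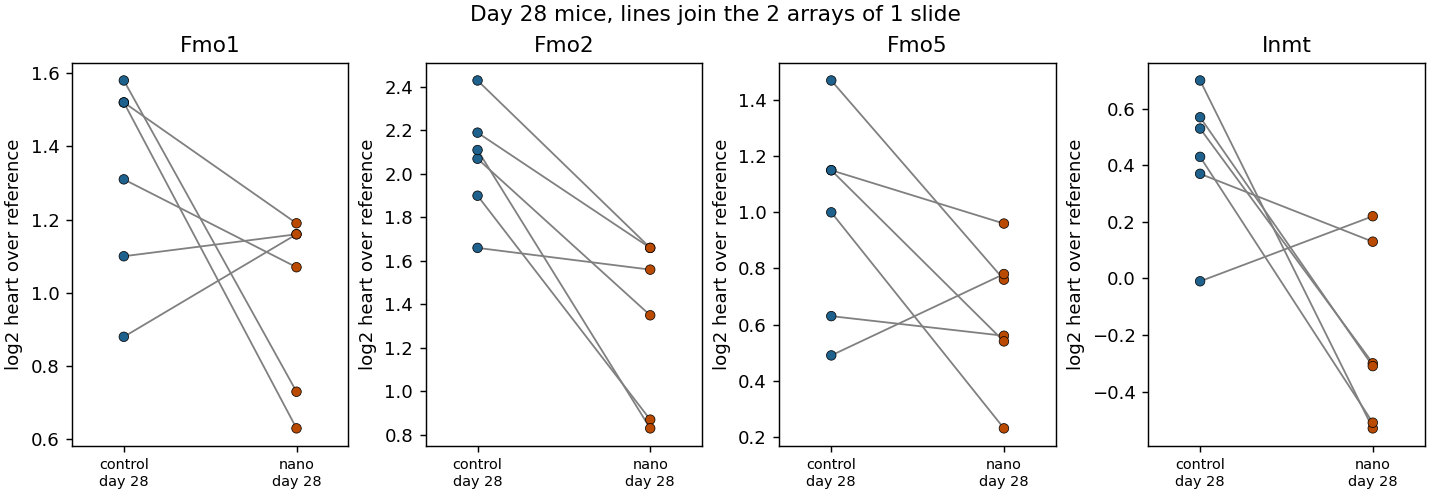
Log2 ratio of heart to reference RNA of the 4 genes in the day 28 mice, with a line between the control and the nano-TiO2 array of each slide. Fmo2 falls on 6 of 6 lines and Inmt on 5 of 6, and the exception in Inmt starts at the lowest control, at -0.01.

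Markers of other cells and tissues also differed at day 28. All 9 adipocyte markers tested were lower in the treated hearts, with a list mean of 0.02 (range of arrays -2.0 to 2.07) against 1.25 (-0.20 to 2.31). All 11 liver markers tested were lower too, with a mean of -0.65 (-1.05 to 0.01) against 0.91 (-0.84 to 3.22). Of 5 lung epithelium markers 4 were lower, with -0.17 (-0.38 to 0.12) against 0.49 (-0.47 to 2.18). Few control arrays held the high values, 2.67 and 3.22 for liver in replicates 1 and 4. For lung epithelium they were 1.94 and 2.18 in replicates 1 and 5, and the other controls lay at -0.10 or below. Of the lists most like Fmo2 and Inmt within groups, all 11 fibroblast, 8 macrophage and 6 mesothelial markers tested and 5 of 6 smooth muscle markers were lower. Their means in treated against control hearts were -0.03 against 0.28 (fibroblast), 0.03 against 0.27 (macrophage), 0.06 against 0.57 (mesothelium) and -0.05 against 0.74 (smooth muscle). Cardiomyocyte markers were higher in 8 of 9 (-0.06 against -0.19), and endothelial markers in 5 of 10 (-0.04 in both groups). Scgb1a1 exceeded background in 4 of 6 controls and in 0 of 6 treated hearts, and Sftpc in none. With the adipocyte mean as a covariate Fmo2 differed by -0.53 and Inmt by -0.41. Without the 5 arrays high in Scgb1a1 or Alb, which leaves 2 day 28 controls, they differed by -0.56 and -0.43. Without the 3 arrays low in atrial transcripts they differed by -0.65 and -0.59. With lung epithelium and liver means as covariates Inmt differed by -0.34. All of these choices were made after the data were seen, each difference was smaller than without them, and the part of these tissues in the differences was not tested further.

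The treatment difference at day 28 was lower than that at day 1 in all 4 genes. The change of the difference was -1.43 ± 0.26 (SE) in Fmo2, with a 95% interval of -1.98 to -0.89, -0.79 ± 0.23 in Inmt (-1.27 to -0.32), -0.46 ± 0.19 in Fmo1 (-0.85 to -0.08) and -0.44 ± 0.22 in Fmo5 (-0.90 to 0.02). Over all genes 0% passed in this comparison (0 of 15514, 2262 at an unadjusted p under 0.05). Fmo2 was among the genes that passed with scan day as a block (6 in all) and with array weights (71). It also passed without the 3 arrays low in atrial transcripts (95) and without each of 4 single arrays. Nothing is read from that, since its values guided its choice. Measured in Cy5 alone with quantile normalization, the changes were -0.86 in Fmo2, -0.67 in Inmt, -0.13 in Fmo5 and -0.07 in Fmo1. With the adipocyte mean as a covariate they were -0.89 in Fmo2, -0.18 in Inmt, -0.19 in Fmo5 and -0.06 in Fmo1.

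In the main processing the 2 control groups lay further apart in Fmo2 and Inmt than treated and control hearts did on either day. With scanner ratios this did not hold for Fmo2, whose controls differed by 0.69 and whose day 1 groups differed by 1.02. With the adipocyte mean as a covariate it did not hold for Inmt (0.30, beside -0.41 at day 28). Control hearts of day 28 exceeded those of day 1 by 1.12 ± 0.19 (SE, 6 against 5 mice) in Fmo2, 2.17-fold with an interval of 0.74 to 1.5 in log2, and by 0.88 ± 0.16 in Inmt, 1.85-fold (0.55 to 1.22). Fmo5 was 0.36 ± 0.16 higher (0.04 to 0.69), with 4 of 6 hearts above all day 1 controls, and Fmo1 0.14 ± 0.13 (-0.13 to 0.42). Fmo2 and Inmt were among the 10.4% of genes called by limma in this comparison (1612 of 15514, 1075 higher and 537 lower), and among the 4.64% with complete separation upwards (2.38% separated downwards). Since the levels of these controls guided the choice of the genes, nothing is read from that count. Between the days, the treated hearts differed by -0.32 ± 0.13 in Fmo1 (-0.59 to -0.05), -0.08 ± 0.16 in Fmo5 (-0.40 to 0.25) and 0.09 ± 0.16 in Inmt (-0.24 to 0.43), beside 0% of genes called (0 of 15514, 701 at an unadjusted p under 0.05). Complete separation there was found upwards for 0.277% and downwards for 0.477% of genes. The comparisons of treated with control hearts and of control with control hearts share their control arrays, so these values are not independent of each other.

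**Figure D3:**
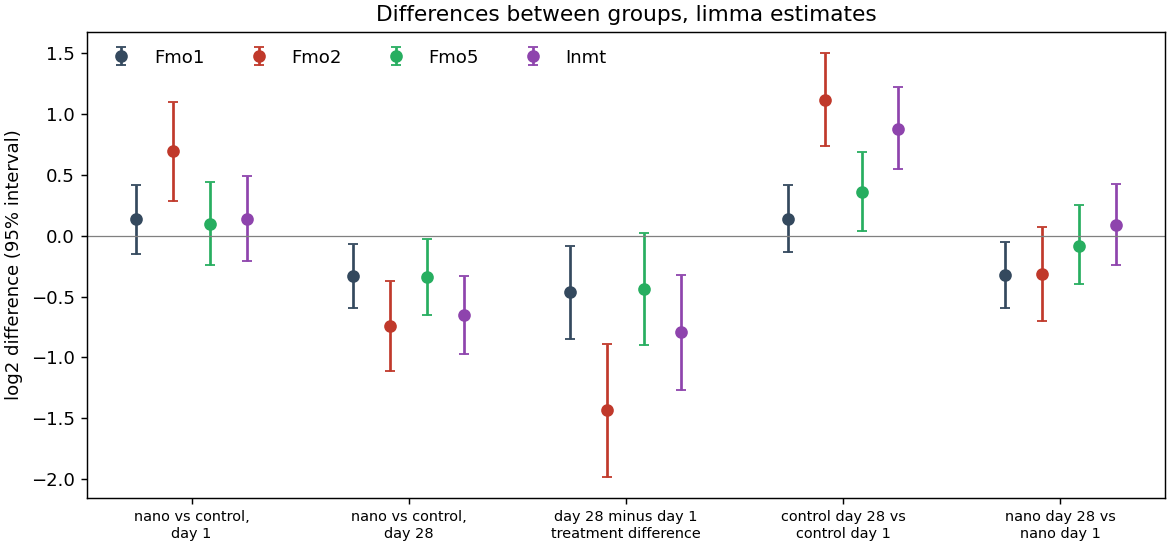
Log2 differences of the 4 genes in each comparison, with 95% intervals from limma. Fmo2 stands at 0.70 at day 1 and -0.74 at day 28, and the controls of the days differ by 1.12 in Fmo2 and 0.88 in Inmt.

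The day 1 and day 28 controls also differed in their other tissues. The adipocyte list rose in 6 of 9 genes tested and stood at a mean of -1.72 at day 1 and 1.25 at day 28, and Adipoq was well above background on 1 of 5 and 6 of 6 arrays. Mesothelial markers rose in 6 of 6, smooth muscle markers in 5 of 6, macrophage markers in 5 of 8 and fibroblast markers in 4 of 11 by limma after adjustment, beside 10.4% of all genes called. Cardiomyocyte markers fell in 4 of 9, with a mean of 0.17 at day 1 and -0.19 at day 28. Atrial markers rose in 2 of 6, with means of -1.19 and 0.90, and liver markers in 1 of 11, with -0.19 and 0.91. With the adipocyte mean as a covariate the difference was 0.60 in Fmo2 and 0.30 in Inmt, and no gene passed. With slide as a block the differences were 0.97 and 0.82, and 0 of 15514 genes passed there too. With the atrial mean as a covariate Fmo2 differed by 0.85 and Inmt by 0.70, and neither passed. With the lung epithelium and liver means they differed by 1.02 and 0.64, and both passed. Without the arrays high in Scgb1a1 or Alb they differed by 0.95 and 0.67, and neither passed. The source of the gap between the control groups was not tested.

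Fmo4 and Fmo9 were well above background on 0 of 22 arrays, and Fmo6 had no matched probe. Fmo1, Fmo2, Fmo4, Fmo6 and Fmo9 lie on chromosome 1 and Fmo5 lies on chromosome 3.

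Inmt belongs to the small-molecule methyltransferases and is counted among them here. Of 12 listed genes 11 were tested, none was called at day 1 or at day 28, and 7 were higher with treatment at day 1 (median 0.05, against 0.01 over all genes) and 8 lower at day 28 (median -0.12, against -0.01). Nnmt, which methylates nicotinamide, differed by -0.56 ± 0.27 (SE) at day 28 (limma adjusted p = 0.658), and Pemt, which makes phosphatidylcholine by methylation, by -0.29 ± 0.13 (adjusted p = 0.653). At day 1 Hnmt, which inactivates histamine, differed by 0.41 ± 0.23 (adjusted p = 0.608) and the arsenic methyltransferase As3mt by -0.13 ± 0.09 (adjusted p = 0.685). In the controls Nnmt rose by 1.05 ± 0.29 from day 1 to day 28 (adjusted p = 0.0228), the other gene of the list besides Inmt that was called. With the adipocyte mean as a covariate the Nnmt difference was -0.12.

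Of 12 genes that make or recycle S-adenosylmethionine, the methyl donor of Inmt, 6 were tested, and none was called between treated and control hearts. Ahcyl2, a relative of the enzyme that clears S-adenosylhomocysteine, differed by -0.18 ± 0.08 (SE) at day 1 (limma adjusted p = 0.541) and by -0.23 ± 0.07 at day 28 (adjusted p = 0.633). Mat2b, a regulatory subunit of S-adenosylmethionine synthesis, differed by -0.09 ± 0.07 at day 1 (adjusted p = 0.708), and Cth, which makes cysteine from cystathionine, by -0.24 ± 0.15 at day 28 (adjusted p = 0.722). The catalytic subunit Mat2a was 0.47 ± 0.14 higher in day 28 than in day 1 controls (adjusted p = 0.0292).

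Amine oxidases take up substrates of the same kind as FMOs and Inmt, and of 6 listed genes of amine making and oxidation 4 were tested. All 4 were higher in treated hearts at day 1 (median 0.43, against 0.01 over all genes) and lower at day 28 (median -0.24, against -0.01). None was called. Aoc3, an amine oxidase of fat and smooth muscle cells, differed by 0.91 ± 0.40 (SE) at day 1 (limma adjusted p = 0.534) and by -0.69 ± 0.36 at day 28 (adjusted p = 0.661). Maob, of the outer mitochondrial membrane, differed by 0.77 ± 0.27 at day 1 (adjusted p = 0.478) and Maoa by -0.21 ± 0.12 at day 28 (adjusted p = 0.696). Between the controls, Aoc3 rose by 1.35 ± 0.38 (adjusted p = 0.0254) and Maob by 0.89 ± 0.26 (adjusted p = 0.0318). With the adipocyte mean as a covariate the Aoc3 difference between the controls was 0.03.

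Of 32 other enzymes that oxidise or conjugate drugs 25 were tested, and none was called between treated and control hearts. In treated hearts 20 were higher at day 1 (median 0.17, against 0.01 over all genes). At day 28, 21 were lower (median -0.22, against -0.01), 12 of them at an unadjusted limma p under 0.05. The 25 include Cyp2e1, Cyp2f2 and Aldh1a7, whose signal in the day 28 controls alone met the filter. For them a lower value in the treated hearts of day 28 was favoured in advance, so nothing is read from these day 28 counts. Of all 15514 genes, 871 were lower at that p. At day 1 the glutathione transferase Gstm5 differed by 0.41 ± 0.16 (SE, limma adjusted p = 0.496) and Cyb5a, cytochrome b5, by 0.21 ± 0.11 (adjusted p = 0.608). At day 28 Adh1, an alcohol dehydrogenase, differed by -1.28 ± 0.36 (adjusted p = 0.633) and Cyp2f2, a cytochrome P450 of airway club cells, by -2.38 ± 0.64 (adjusted p = 0.633), the latter detected in 5 of 6 controls and 1 of 6 treated hearts. Without the 5 arrays high in Scgb1a1 or Alb these differences were -0.64 and -0.25. Between the controls 11 genes of the list rose and none fell by limma after adjustment, beside 10.4% of all genes called. Of these, 8 were detected in both groups and rose by 0.35 to 1.74 in log2. The other 3 (Cyp2e1, Cyp2f2 and Aldh1a7) were detected in 0 of 5 day 1 controls and in 5 of 6 day 28 controls. Their signal in the higher group alone met the filter, so a fall could not have been seen and nothing is read from their calls. The genes named for the controls, Nnmt, Mat2a, Aoc3 and Maob, and the 3 just given, were picked after their values were seen. The calls of Nnmt, Mat2a, Aoc3 and Maob were each lost when certain single arrays were left out, with adjusted p up to 0.061 for Nnmt, 0.0971 for Mat2a, 0.064 for Aoc3 and 0.0864 for Maob, and with slide as a block.

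Within groups, the 4 genes varied together to unequal degrees. With group means subtracted, Pearson's r over the 22 arrays was 0.691 between Fmo2 and Fmo5, 0.658 between Fmo1 and Fmo2, 0.594 between Fmo1 and Fmo5, 0.548 between Fmo2 and Inmt, 0.398 between Fmo1 and Inmt and 0.204 between Fmo5 and Inmt. Among the r values of the first-named gene with all genes, these lay at percentiles 96.9, 98.8, 96.8, 90.9, 85.2 and 64.5, in that order. The r values describe the arrays, which share slides and tissue content, and carry no test. The spread within groups was 0.23 in Fmo1, 0.33 in Fmo2, 0.28 in Fmo5 and 0.29 in Inmt (residual SD in log2), between percentiles 77.1 and 92.3 of all genes.

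Among 10219 named genes, those whose pattern within groups was most like Fmo2 were Tgfbi (r = 0.910), which encodes an extracellular matrix protein, Fbln1 (0.903), the matrix protein fibulin-1, Lrp1 (0.891), an endocytic receptor, Gucy1a1 (0.886), a subunit of the nitric oxide receptor, and Pdlim3 (0.875). The mean of the macrophage markers gave r = 0.800 with Fmo2, of fibroblast markers 0.747, of smooth muscle markers 0.719, of adipocyte markers 0.615, of lung epithelium markers -0.155 and of cardiomyocyte markers -0.603. Arrays high in Fmo2 for their group were thus high in macrophage, fibroblast, smooth muscle and adipocyte markers. The genes most like Inmt were Hp (0.855), the haemoglobin-binding haptoglobin, C2 (0.854), a complement protease, Rbp4 (0.847), a retinol carrier, the keratin Krt19 (0.843), itself on the mesothelial list, and Adipoq (0.824), the fat cell hormone adiponectin. Inmt gave r = 0.843 with the mesothelial mean, 0.805 with the adipocyte mean, 0.573 with the liver mean and 0.320 with the lung epithelium mean.

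Among the genes most like Fmo1 were Nat8l (0.806), which makes N-acetylaspartate, Clec4a2 (0.800), a lectin of myeloid cells, Lefty1 (0.798) and Penk (0.797), the enkephalin precursor, and Fmo1 gave r = 0.655 with the adipocyte mean. Fmo5 ran most like Mill2 (0.856), Ndnf (0.812), Rgs6 (0.812), Gbp5 (0.807) and Aif1 (0.806), a macrophage protein, and gave r = 0.692 with the macrophage, 0.335 with the adipocyte and -0.549 with the cardiomyocyte mean. A list of glucocorticoid-induced genes gave r between -0.161 and 0.103 with the 4 genes. All of these are likenesses over 22 arrays, given with no test.

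**Figure D4:**
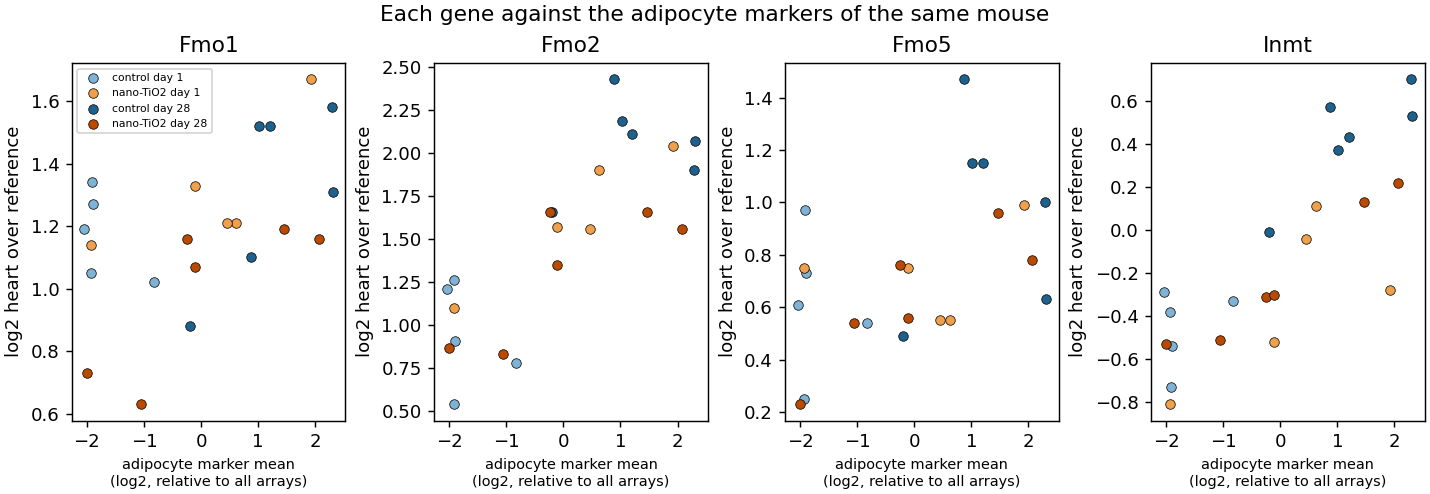
Log2 ratio of heart to reference RNA of the 4 genes against the mean of the adipocyte markers on the same array, 1 point per mouse, coloured by group. Day 1 controls lie at the left, between -2.04 and -0.83, and within groups r was 0.805 for Inmt, 0.655 for Fmo1, 0.615 for Fmo2 and 0.335 for Fmo5.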

How the data were processed

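The deposited scanner files hold median intensities per spot and of the surrounding background in Cy5 and Cy3, neither subtracted nor normalized, per the file headers, and a log10 ratio made by Agilent Feature Extraction 10.7.3.1 (the submitters' processing notes name 9.5.3.1). The authors' deposited series matrix holds log2 values by a method that is not given in the sources used here. Their columns had medians of -0.0362 to -0.0207 and correlated at r = 0.992 to 0.998 with loess ratios made without background subtraction, while their scaling is unknown.

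Log2 ratios of Cy5 to Cy3 were made in R 4.3.3 with limma 3.58.1 (with the data.table package at 1.17.8; figures with Python 3.11.15 and matplotlib 3.10.9). Background was corrected with normexp (offset 50), fitted without unevenly lit spots, and arrays were normalized with loess, control spots at weight 0. Outlier and uneven spots (0.299%) were left out. The offset shrinks ratios of dim spots. Kept were 19287 probes, those that exceeded background well in Cy5 on 5 or more of 22 arrays. They were named through RefSeq accessions (23374 of 41174 probes matched). A gene was given by its probe of highest mean Cy5, which left 15514 genes. Of these, 10486 had a symbol. The rest, without a match, stand under the name that the array design gives the target, and are counted as genes in all shares. Per array, 32.8% to 52.9% of probes were well above background in Cy5 and 0 spots were saturated. The number of arrays limits the precision.

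limma was fitted with 4 group means and eBayes, with Benjamini-Hochberg adjustment over all genes and a threshold of 0.05, and was tested on simulated data. Intervals are at 95%. The 4 genes, the gene lists and the tests were chosen with earlier results of these data known. Named were all FMO genes, of each other list the called genes or the 2 with the smallest p at day 1 and at day 28, and the 5 genes most alike, except that some genes this rule picks are not reported here. A cell type list stands for its mean over genes tested. Replicates were separate mice, numbered in order of deposit. Alternatives changed background correction, normalization, filter, probe choice, blocks, weights, covariates or arrays.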

Additional observations from a re-analysis of the deposited data

Results flagged for a closer look

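Fmo2 is singled out because every treated heart followed the sign of its day, and the signs were opposite. All 5 nano-TiO2 hearts of day 1 lay above the mean of the day 1 controls and all 6 of day 28 lay below the mean of the day 28 controls, and the difference at day 28 minus that at day 1 was -1.43 in log2. The mean differences of Fmo1 (0.14 and -0.33), Fmo5 (0.10 and -0.34) and Inmt (0.14 and -0.65) also had opposite signs. At day 28 every treated heart lay below the control mean in these genes too. Their highest treated values were 1.19, 0.96 and 0.22, against control means of 1.32, 0.98 and 0.43. At day 1 not every treated heart lay above the control mean in them, so only day 1 sets Fmo2 apart here. The genes were chosen with these values known, so the change is described and was not tested. In the main processing the control groups of the 2 days differed by 1.12 in Fmo2, more than either treatment difference. With scanner ratios they differed by 0.69, less than the 1.02 between the day 1 groups.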

How the results depend on the processing

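Fmo2 kept its sign in all 44 alternatives in both treatment comparisons, and all 4 genes did so at day 28. Many alternatives could not change a difference, such as leaving out an array of the other day or changing the filter or the eBayes setting. Counts of kept signs are therefore no measure of support. The second, mostly undetected Fmo2 probe gave 0.14 and -0.05. With plain subtraction Fmo1 was -0.27 and -0.68 and Fmo5 -0.34 and -1.13 at day 1 and day 28. Scanner ratios gave Fmo1 0.51 at day 1 and Fmo5 -0.71 at day 28, levels of 3.53, 4.04, 3.46 and 3.24 in Fmo1, of 3.79, 4.81, 4.48 and 3.90 in Fmo2 and of 3.31, 3.49, 3.77 and 3.05 in Fmo5 (control day 1, nano-TiO2 day 1, control day 28, nano-TiO2 day 28), and -0.75 in Inmt of control day 1. The adipocyte covariate gave Fmo1 -0.11 and Inmt -0.23 at day 1, and the lung epithelium and liver covariates Inmt -0.34 at day 28. Leaving out single arrays gave 0.05 to 0.18 (Fmo1), 0.59 to 0.83 (Fmo2), 0.01 to 0.19 (Fmo5) and 0.04 to 0.27 (Inmt) at day 1, and -0.41 to -0.26, -0.82 to -0.64, -0.44 to -0.25 and -0.74 to -0.59 at day 28.

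Genes called at day 1 numbered 1 with plain subtraction, 7 with scanner ratios and 4 with array weights. They numbered 35 without the arrays low in atrial transcripts and 0 to 21 without single arrays (21 without nano-TiO2 replicate 1). At day 28 they numbered 1 with plain subtraction, 1 with lung epithelium and liver covariates and 0 to 3 without single arrays. For the change between days they numbered 45 (scanner ratios), 6 (scan day block), 71 (array weights) and 95 (without the arrays low in atrial transcripts). Without single arrays they numbered 0 to 313 (313 without nano-TiO2 day 1 replicate 1). Between the controls 1612 became 78 with normexp on all spots, 3866 with scanner ratios, 87 with median centring, 0 with slide as a block, 2535 with array weights, 1 without the arrays high in Scgb1a1 or Alb, 0, 272 and 12 with adipocyte, lung epithelium and liver, and atrial covariates, and 949 to 2068 without single arrays. Between the treated groups 0 passed without any single array.

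At day 1 the sign was kept in 40 of 43 alternatives for Fmo1, 40 of 44 for Fmo5 and 42 of 43 for Inmt. Between the controls Fmo1 kept it in 39 of 43. Among the other named genes, signs turned at day 1 for As3mt (0.15 with normexp on all spots, 0.08 with median centring, 0.01 with the mean of probes), Mat2b (0.21 with median centring) and Cyb5a (-0.05 with the adipocyte covariate). They turned between controls for Nnmt (-0.12 with the adipocyte covariate) and Maob (-0.02 with scanner ratios). The causes were not tested. Covariates and the sets of left-out arrays were chosen after seeing the data. No paired analysis was possible because the replicate numbers follow the order of deposit, so arrays were tied by slide or scan day instead. Ratios of the FMO genes are limited by a dim reference signal.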
